A study of Homo sapiens with 6 samples.

Results

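DNA damage signalling and repair was followed across 57 genes chosen by symbol from a list of repair factors, out of 20442 genes in the count table. The list was drawn up by function (Fanconi anaemia proteins, homologous recombination, end joining, checkpoint signalling, and mismatch, base excision and nucleotide excision repair). Earlier results of these data were known when it was drawn up. All 57 were found in the table, and all 57 passed the filter on low counts, with between 135 and 16798 reads per gene and library. The cells were T24, an established human cell line derived from a bladder carcinoma. One group of cells had been given a small interfering RNA against the spindle protein gene KNSTRN (si-KNSTRN) for 24 h after 24 h of attachment, and the other group a control siRNA (si-NC) for the same time. Each group held 3 RNA sequencing libraries, which the series describes as biological replicates. The labels name 1 si-KNSTRN treatment and 1 cell line, and the sequence of neither siRNA is given in the sources used here.

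Cells respond to DNA breaks and stalled replication forks through kinases that sense the lesion and halt the cell cycle, scaffold proteins that mark the chromatin around it, and repair pathways suited to each kind of damage. Homologous recombination and the Fanconi pathway copy from the sister chromatid or unhook crosslinks and act mainly in S and G2 phase, whereas end joining religates ends at any stage. Mismatch repair corrects mispaired bases and loops, base excision repair removes damaged bases, and nucleotide excision repair removes bulky lesions. Many of these genes are transcribed more strongly in dividing cells, and bladder tumours often carry lesions in repair genes.

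The si-KNSTRN libraries held 17870543 to 19717513 counted reads and the si-NC libraries 16386799 to 20596074. KNSTRN itself had 13.6, 13.6 and 12.2 CPM (read counts scaled to a common library size with TMM factors) in si-KNSTRN libraries 1 to 3, against 38.3, 41.2 and 41.9 CPM in si-NC libraries 1 to 3 (log2 fold change -1.62, SE 0.07, adjusted p = 1.7e-11 by edgeR's quasi-likelihood test). The epithelial keratin genes KRT7, KRT8 and KRT18 averaged 1186, 1081 and 901 CPM in si-KNSTRN cells and 1013, 1080 and 843 CPM in si-NC cells. Of 16 epithelial and urothelial markers, 8 were tested, of which KRT7 and PPARG were higher and UPK1A lower. UPK1A averaged 0.175 CPM in si-KNSTRN cells and 0.832 CPM in si-NC cells, and KRT5, CDH1 and UPK3A had no read in any library. Of 14 markers of immune, stromal, endothelial and muscle cells, 2 (CD3E and COL1A2) had no read, and the list summed to between 71.8 and 72.3 CPM in si-KNSTRN libraries and between 57.7 and 64.6 CPM in si-NC libraries, most of it from CD68. Whether this difference has a part in the results was not tested.

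Among the repair genes, falls outnumbered rises, with MDC1, MRE11, MSH6, BRCA1 and ATM among those that fell and LIG4, NBN and PALB2 among those that rose. At an adjusted p under 0.05, 22 of the 57 were lower in si-KNSTRN cells, 10 were higher and 25 were not called. This was 56.1% of the members, beside 62.5% of all 12650 genes tested. The share lower was 38.6%, beside 31.3% of all genes tested, and the share higher 17.5%, beside 31.2%. When libraries were scaled by their size alone, 18 were lower and 14 higher. The groups of libraries did not overlap for 38 members (66.7%, with 24 lower and 14 higher), beside 67.3% of all genes tested (33.9% lower and 33.4% higher). In bulk RNA, fewer cells with a transcript and less of it per cell cannot be told apart.

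The sizes of the changes were modest. No member was called at a difference of 2-fold or more, beside 6.43% of all genes tested. A log2 fold change of at least 0.4 in size was reached by 12 called members, 10 lower and 2 higher, or 21.1% beside 32.5% of all genes tested. A log2 fold change of at least 0.322 in size was reached by 15 called members (26.3%), beside 40.5% of all genes tested. The median size of the log2 fold change was 0.20 over the members and 0.28 over all genes tested. The median log2 fold change with its sign was -0.05 over the members and -0.01 over all genes tested. Together the 57 genes took between 0.509% and 0.516% of the reads in si-KNSTRN libraries, against between 0.519% and 0.549% in si-NC libraries.

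**Figure D1:**
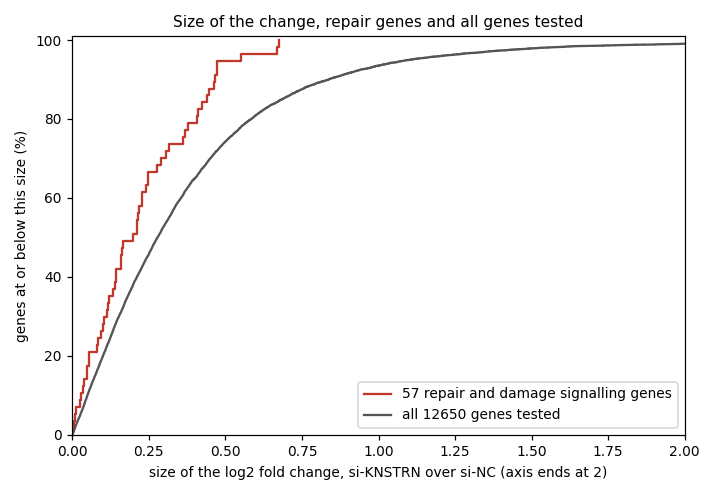
Cumulative share of genes (vertical axis, in percent) by the size of the log2 fold change of si-KNSTRN over si-NC (horizontal axis), for the 57 repair genes and for all 12650 genes tested. The curve of the repair genes lies to the left, with a median of 0.20 against 0.28, and ends before 1, a 2-fold difference.

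**Figure D2:**
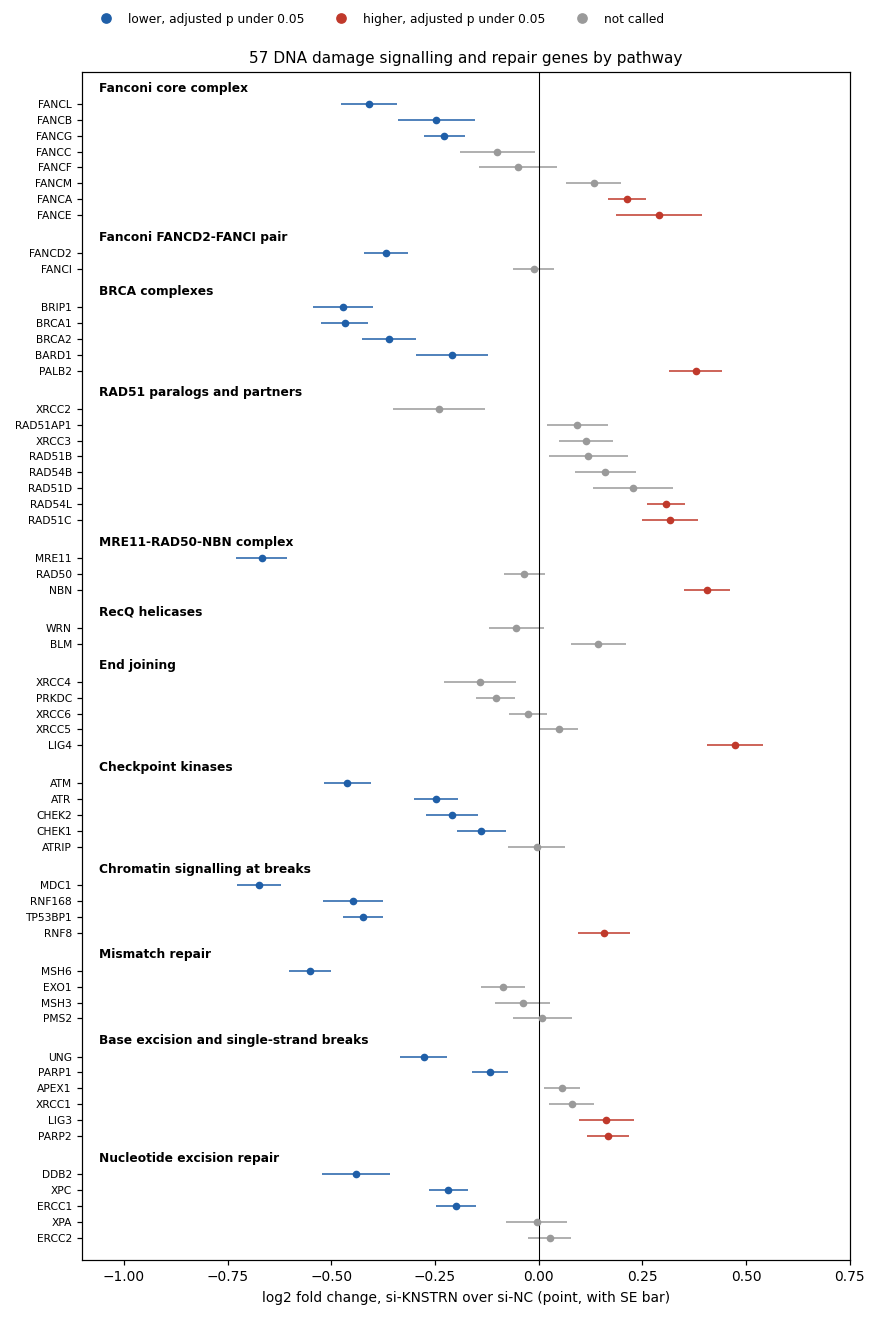
Log2 fold change of si-KNSTRN over si-NC for each of the 57 genes (points, with standard error bars), grouped by pathway and coloured by call. Checkpoint kinase, break chromatin and BRCA genes lie mostly to the left of 0, and LIG4 and NBN lie farthest to the right.

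The 3' untranslated regions were read for the word TGAGTA, which was chosen because earlier results of these data had shown it among genes lower in si-KNSTRN cells, so its counts are a description. In GENCODE 29 transcripts, 18 of the 57 genes (31.6%) held TGAGTA there, beside 27.3% of 12173 genes tested that have such a region of at least 50 bases. Of these 18, 8 were lower, 3 higher and 7 not called, a share lower of 44.4%, beside 40.9% of the 3327 genes tested that hold the word. Of the 39 repair genes without it, 14 were lower (35.9%), beside 27.8% of 8846. The regions with the word were also longer, with a median of 2240 bases, against 758 bases in repair genes without it. MRE11 and RNF168 hold the extended word CTGAGTAA, and both fell. Of 6 genes with CTGAGTA but not the extended word, 2 were lower (BRIP1 and FANCD2), 1 was higher (RAD51C) and 3 were not called. Of 3 genes with TGAGTAA but no C before it, none was lower, 1 was higher (LIG3) and 2 were not called. A further 7 genes hold TGAGTA only without either flanking base. Of these, 4 were lower (MDC1, MSH6, ATM and ERCC1), 1 was higher (RNF8) and 2 were not called. BRCA1, BRCA2, TP53BP1, FANCL and DDB2 were lower and hold none. Sites of the higher genes RAD51C, LIG3 and RNF8 are not shown. Sites of some genes that fell are set here beside that of RAD50 (not called), on the transcript strand in GRCh38, with the word and its matching flanks in capitals.
ATM (chr11:108367523-108367544, plus strand): tgtattagTGAGTAtaatctct
MRE11 (chr11:94417285-94417306, minus strand): aaaaaaaCTGAGTAAaaaagta
MRE11, a further site (chr11:94419902-94419923, minus strand): atcactctTGAGTAAagattaa
RNF168 (chr3:196469322-196469343, minus strand): ttgtcctCTGAGTAAtgattgt
BRIP1 (chr17:61683012-61683033, minus strand): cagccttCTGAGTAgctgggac
FANCD2 (chr3:10099009-10099030, plus strand): atcactcCTGAGTAtctcgagt
MDC1 (chr6:30699980-30700001, minus strand): gcttggagTGAGTAgatttgag
RAD50 (chr5:132642786-132642807, plus strand): tgaaaaaCTGAGTAttaatatc

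Promoters of the repair genes were read for words bound by E2F, the factor family of S phase genes. They were taken from RefSeq (GRCh38.p14) as 250 bases before to 50 bases after each start, and 51 of the 57 genes had an entry. The words searched on both strands were TTTCCCGC, TTTGGCGC, TTTCGCGC and TTTGGCGG, of which TTTGGCGC and TTTCGCGC can overlap on opposite strands. At least 1 of them was present in 9 of 51 promoters (17.6%), beside 5.74% of 10272 promoters of genes tested, 3.43% of all 27305 promoters and 78.3% of 23 promoters of the replication list. Of the 9 genes, 4 were called lower, none higher and 5 were not called. By call, the words were present in 18.2% of 22 promoters of lower members and 25.0% of 20 promoters of members not called. Of 9 promoters of higher members, 0 held a word. The share among lower members was thus close to the 17.6% of all members. CCAAT, on either strand, was present in 51.0% of the repair gene promoters, beside 36.6% of the promoters of genes tested, and TTTGAA in 9.80% beside 9.54%. A matching word is not a measured binding site. The 4 genes called lower are shown here with 2 that were not called, the word or its reverse complement in capitals, on the strand of the gene.
FANCD2 (chr3:10026425-10026452, plus strand, lower): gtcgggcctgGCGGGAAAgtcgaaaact
MSH6 (chr2:47783138-47783165, plus strand, lower): tccccccagaTTTCCCGCcagcaggagc
RNF168 (chr3:196503779-196503806, minus strand, lower): gaagtgcgatTTTGGCGGgcggttgtga
XPC (chr3:14178825-14178851, minus strand, lower): cctgcgcccTTTCCCGCctctcgcgag
EXO1 (chr1:241848198-241848225, plus strand, not called): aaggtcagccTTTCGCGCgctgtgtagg
MSH3 (chr5:80654535-80654562, plus strand, not called): cgcggtcaagTTTGGCGCgaaattgtgg

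Subunits of the same complex went different ways in the MRE11-RAD50-NBN complex, which binds broken ends, tethers them and starts their resection. MRE11, its nuclease, had 50.6, 43.4 and 43.6 CPM in si-KNSTRN libraries 1 to 3, against 70.6, 71.3 and 77.0 CPM in si-NC libraries 1 to 3 (log2 fold change -0.67, SE 0.06, adjusted p = 9.0e-08). NBN, the adaptor that recruits the kinase ATM, had 102, 95.5 and 95.5 CPM in si-KNSTRN libraries, against 75.1, 67.7 and 78.0 CPM in si-NC libraries (log2 fold change 0.41, SE 0.05, adjusted p = 6.9e-06). In neither gene did the groups overlap, and the directions were opposite. RAD50, the ATPase that holds the ends together, had 77.9, 71.8 and 73.1 CPM in si-KNSTRN libraries, against 76.9, 72.5 and 78.7 CPM in si-NC libraries, and was not called (log2 fold change -0.03, SE 0.05). MRE11 shares 225 exonic bases with the neighbouring gene ANKRD49, which averaged 7.98 CPM in si-KNSTRN cells and 9.86 CPM in si-NC cells. Of the 50-base windows of the RAD50 transcript, 90.6% also occur in other annotated transcripts of the locus, so its counts are uncertain.

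The BRCA genes divided in a similar way. BRCA1, the ubiquitin ligase that promotes resection and recombination, had 56.5, 58.1 and 53.3 CPM in si-KNSTRN libraries 1 to 3, against 73.1, 75.3 and 83.8 CPM in si-NC libraries 1 to 3. BRIP1, a helicase that binds BRCA1, had 38.4, 34.9 and 31.5 CPM in si-KNSTRN libraries, against 48.2, 45.5 and 51.8 CPM in si-NC libraries. Both fell by 0.47 on the log2 scale (SE 0.06 and 0.07), with every si-KNSTRN library under every si-NC library. BRCA2, which loads the strand-exchange recombinase on single-stranded DNA, averaged 26.3 ± 1.16 CPM in si-KNSTRN cells and 33.8 ± 1.43 CPM in si-NC cells (SD, n = 3 each); its log2 fold change was -0.36 (SE 0.07, adjusted p = 0.00015). PALB2, the bridge between BRCA1 and BRCA2, moved the other way. It had 37.6, 36.6 and 36.9 CPM in si-KNSTRN libraries, against 29.2, 26.5 and 29.6 CPM in si-NC libraries (log2 fold change 0.38, SE 0.06, adjusted p = 7.8e-05). BARD1, the partner that stabilises BRCA1, fell by 0.21 (SE 0.09, adjusted p = 0.044). That call was lost without si-KNSTRN library 3 or without si-NC library 2 or 3 (adjusted p = 0.25, 0.16 and 0.098), with library size alone (0.083) and with DESeq2 (0.076).

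**Figure D3:**
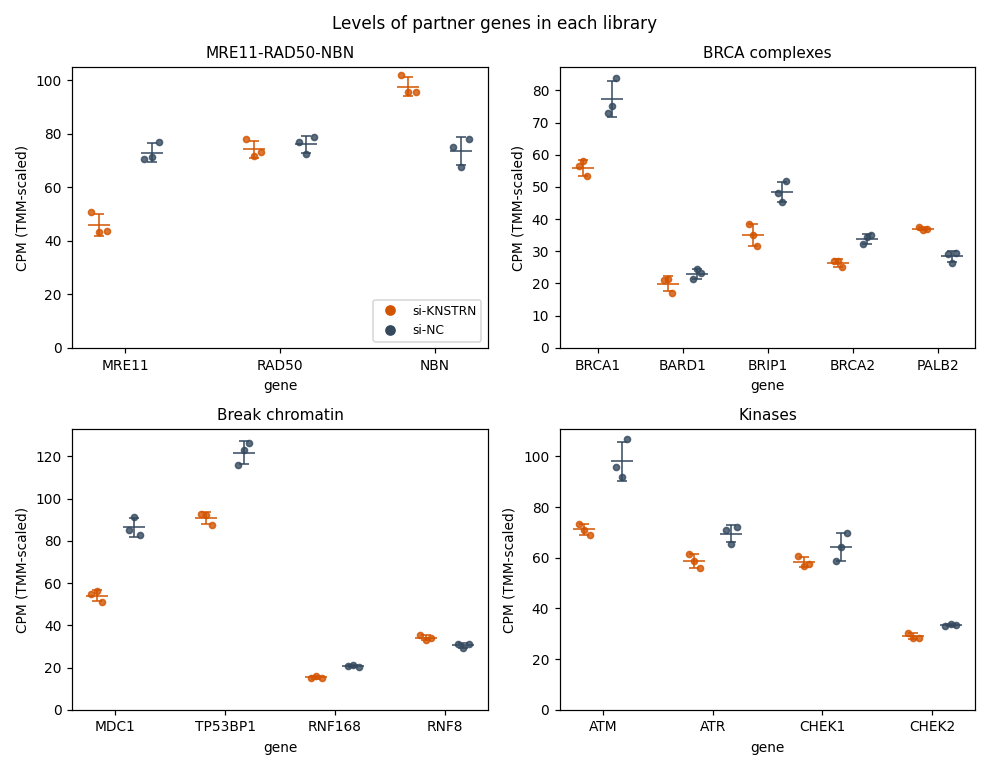
TMM-scaled CPM (vertical axes, starting at 0) in each library of si-KNSTRN and si-NC cells for genes of 4 functional groups, with points for libraries and bars for the mean and SD of 3 libraries. In the panel of the MRE11-RAD50-NBN complex, MRE11 was lower and NBN higher in every si-KNSTRN library, and RAD50 overlapped.

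Of 8 genes that encode paralogs and partners of the strand-exchange recombinase, 2 rose, none fell and 6 were not called, with a median log2 fold change of 0.14. RAD54L, a translocase that helps strand invasion, had 76.0, 79.1 and 79.0 CPM in si-KNSTRN libraries 1 to 3, against 63.6, 63.3 and 62.3 CPM in si-NC libraries 1 to 3 (log2 fold change 0.31, SE 0.05, adjusted p = 1.9e-05). RAD51C, a subunit shared by both paralog complexes, averaged 26.2 ± 1.44 CPM in si-KNSTRN cells and 21.01 ± 0.364 CPM in si-NC cells (SD, n = 3 each; log2 fold change 0.32, SE 0.07). In both genes the groups were separate. XRCC3, the other subunit of one of these complexes, had a log2 fold change of 0.11, and RAD51B, RAD51D, RAD54B and RAD51AP1 had 0.12, 0.23, 0.16 and 0.09. Counts of XRCC3 and RAD54B are uncertain, because they share 5756 and 3139 exonic bases with KLC1 and FSBP, which had log2 fold changes of 0.48 and -1.30. XRCC2 had -0.24 (adjusted p = 0.067) and was the single gene of this group with a negative value. Without si-NC library 3, RAD54B and RAD51AP1 were called as well (adjusted p = 0.017 and 0.025). RAD51D was called without si-KNSTRN library 1 or si-NC library 2 (adjusted p = 0.0080 and 0.036), RAD54B without si-KNSTRN library 3 (0.0091), and XRCC2 without si-NC library 2 (0.024). With library size alone RAD51D and RAD54B were called higher (0.026 and 0.030), as they were without the low-count filter (0.038 and 0.040). RAD51D was also called with DESeq2-type factors (0.048), and with upper-quartile factors XRCC2 was called lower (0.034). The RecQ helicase genes BLM and WRN, which unwind recombination intermediates, had log2 fold changes of 0.14 (adjusted p = 0.069) and -0.05 (adjusted p = 0.50). BLM was called without si-KNSTRN library 3 or si-NC library 3 (adjusted p = 0.039 and 0.026), and with library size alone (0.028).

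Genes of the Fanconi pathway, which repairs crosslinks between DNA strands, changed in both directions. Of 8 genes of the core complex, the ubiquitin ligase of the pathway, 3 fell, 2 rose and 3 were not called. FANCL, the catalytic subunit, had 33.2, 30.8 and 30.3 CPM in si-KNSTRN libraries 1 to 3, against 44.2, 38.6 and 42.3 CPM in si-NC libraries 1 to 3 (log2 fold change -0.41, SE 0.07, adjusted p = 5.4e-05). FANCG fell by 0.23 (SE 0.05), and FANCA, its binding partner, rose (log2 fold change 0.21, SE 0.05), with 138 ± 2.28 CPM in si-KNSTRN cells and 119 ± 4.45 CPM in si-NC cells (SD, n = 3 each). FANCB fell by 0.25 and FANCE rose, with log2 fold change 0.29. The call of FANCB was lost without si-KNSTRN library 2 or 3 or si-NC library 3 (adjusted p = 0.059, 0.080 and 0.14), with library size alone (0.058) and with DESeq2 (0.072). That of FANCE was lost without si-KNSTRN library 2 or si-NC library 1 or 3 (adjusted p = 0.078, 0.14 and 0.054) and with upper-quartile factors (0.051). FANCC, FANCF and the translocase gene FANCM had log2 fold changes of -0.10, -0.05 and 0.13, and FANCM was called higher with library size alone (adjusted p = 0.039).

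FANCD2 and FANCI encode the pair of proteins that the core complex marks with ubiquitin. FANCD2 had 59.3, 57.6 and 54.5 CPM in si-KNSTRN libraries 1 to 3, against 69.7, 77.6 and 74.5 CPM in si-NC libraries 1 to 3 (log2 fold change -0.37, SE 0.05, adjusted p = 1.3e-05). FANCI had 188, 189 and 196 CPM in si-KNSTRN libraries, against 181, 193 and 204 CPM in si-NC libraries (log2 fold change -0.01, SE 0.05). The groups were separate for FANCD2 and overlapped for FANCI. Exons of FANCA and FANCL overlap those of ZNF276 and VRK2, which had log2 fold changes of 0.06 and -0.09 and were not called.

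Of 5 genes that signal DNA damage, which encode 4 checkpoint kinases and the ATR partner ATRIP, 4 fell and none rose, with a median log2 fold change of -0.21. ATM, the kinase that responds to double-strand breaks, had 73.5, 71.2 and 69.2 CPM in si-KNSTRN libraries 1 to 3, against 95.7, 91.8 and 107 CPM in si-NC libraries 1 to 3 (log2 fold change -0.46, SE 0.06, adjusted p = 2.2e-06). ATR, the kinase that responds to single-stranded DNA at stalled forks, averaged 58.6 ± 2.75 CPM in si-KNSTRN cells and 69.5 ± 3.49 CPM in si-NC cells (SD, n = 3 each; log2 fold change -0.25, SE 0.05). CHEK2, the effector kinase downstream of ATM, fell by 0.21 (SE 0.06, adjusted p = 0.0077), with separate groups. CHEK1, the effector downstream of ATR, was called just under the threshold (log2 fold change -0.14, adjusted p = 0.0499), and its groups overlapped, with 60.6, 56.7 and 57.6 CPM in si-KNSTRN libraries and 58.8, 64.4 and 69.6 CPM in si-NC libraries. The call was lost without si-KNSTRN library 2 or 3 or si-NC library 2 or 3 (adjusted p = 0.16, 0.089, 0.11 and 0.25), with library size alone (0.15) or DESeq2-type factors (0.055), and with DESeq2 (0.093) or limma-voom (0.068). ATRIP, which carries ATR to single-stranded DNA, had a log2 fold change of -0.01. It shares 1515 exonic bases with the exonuclease gene TREX1, which averaged 8.96 CPM in si-KNSTRN cells and 16.95 CPM in si-NC cells.

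Of 4 genes that mark the chromatin around breaks, 3 fell and 1 rose, with a median log2 fold change of -0.44. MDC1, the scaffold that binds the phosphorylated histone at breaks, had the largest log2 fold change of the 57 genes in size, with MRE11 within its standard error. It had 55.0, 56.0 and 51.1 CPM in si-KNSTRN libraries 1 to 3, against 85.3, 91.4 and 82.5 CPM in si-NC libraries 1 to 3 (log2 fold change -0.68, SE 0.05, adjusted p = 1.6e-08). Every si-KNSTRN library lay well below every si-NC library. RNF168, the ligase that ubiquitinates histones there, had 14.9, 16.1 and 14.9 CPM in si-KNSTRN libraries, against 20.9, 21.3 and 20.4 CPM in si-NC libraries (log2 fold change -0.45, SE 0.07). TP53BP1, the reader of that mark, which limits resection, had 92.6, 92.2 and 87.4 CPM in si-KNSTRN libraries, against 116, 123 and 127 CPM in si-NC libraries (log2 fold change -0.42, SE 0.05). Both were separate between groups. RNF8, the ligase that acts between MDC1 and RNF168, rose, with log2 fold change 0.16 (SE 0.06, adjusted p = 0.040). That call was lost on leaving out any library other than si-NC library 3 (adjusted p from 0.058 to 0.14), with DESeq2 (0.071) and with upper-quartile factors (0.13). TP53BP1 shares 3732 exonic bases with TUBGCP4, which was not called (log2 fold change -0.04).

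**Figure D4:**
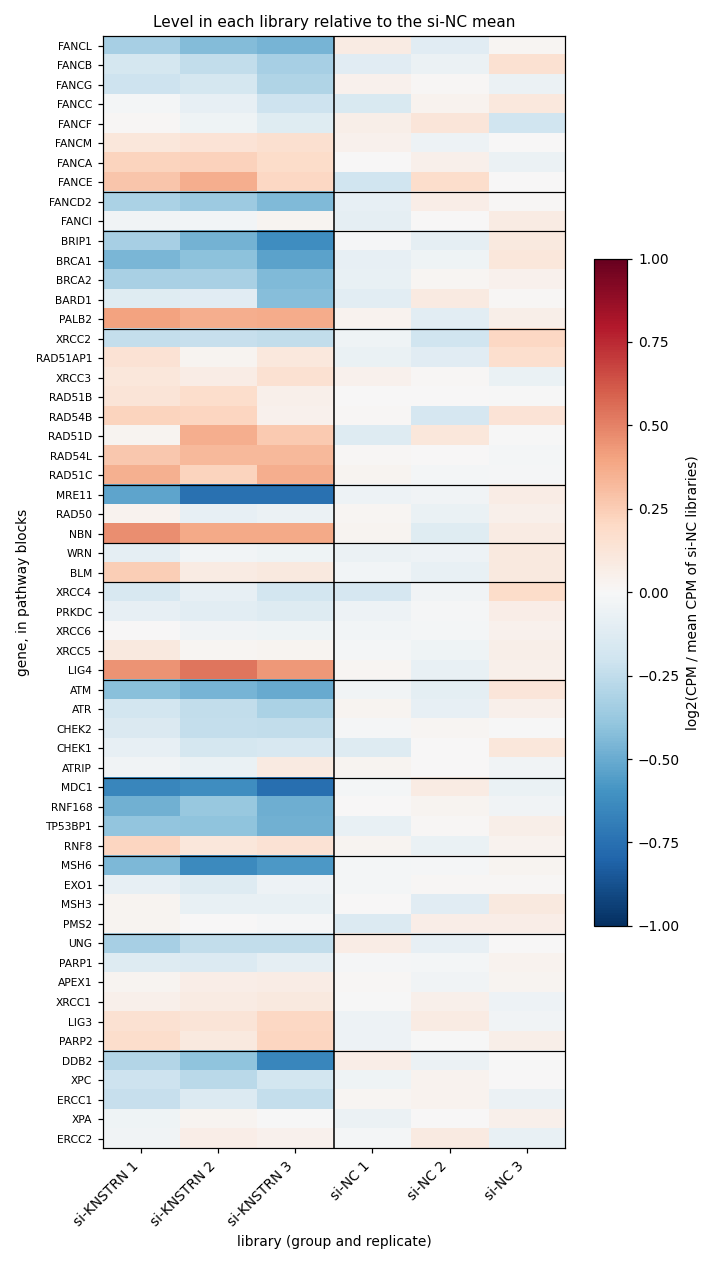
Level of each of the 57 genes in each library as log2 of its CPM over the mean CPM of the si-NC libraries, with si-KNSTRN libraries on the left and lines between pathway blocks. MDC1, MRE11 and MSH6 form the darkest blue rows and LIG4, NBN and PALB2 the clearest red ones in all 3 si-KNSTRN libraries.

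Of 5 end joining genes, LIG4 rose and the other 4 were not called. LIG4, the ligase that seals the ends, had 28.5, 30.3 and 28.3 CPM in si-KNSTRN libraries 1 to 3, against 21.1, 19.8 and 21.6 CPM in si-NC libraries 1 to 3 (log2 fold change 0.47, SE 0.07, adjusted p = 1.2e-05). It was the largest rise of the 57 genes. Its scaffold XRCC4 averaged 18.2 ± 0.648 CPM in si-KNSTRN cells and 20.1 ± 2.53 CPM in si-NC cells (SD, n = 3 each), with overlapping groups, and was not called (log2 fold change -0.14, adjusted p = 0.17). Without si-NC library 1 it was called lower (adjusted p = 0.041). XRCC5 and XRCC6, which encode the Ku ring that caps DNA ends, had log2 fold changes of 0.05 and -0.03 (SE 0.05 and 0.04). PRKDC, the kinase that Ku recruits, averaged 799 ± 13.9 CPM in si-KNSTRN cells and 859 ± 35.2 CPM in si-NC cells (SD, n = 3 each; log2 fold change -0.10, adjusted p = 0.064), and was called lower by DESeq2 (adjusted p = 0.038), limma-voom (0.043) and edgeR with upper-quartile factors (0.015).

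Levels per kilobase of transcript differed widely among the 57. XRCC6 reached 254 ± 4.74 CPM per kilobase in si-KNSTRN cells and 259 ± 6.70 in si-NC cells (SD, n = 3 each), the highest level in both groups. APEX1 followed with 158 ± 2.66 in si-KNSTRN cells and 152 ± 3.42 in si-NC cells, and XRCC5 with 149 ± 4.79 in si-KNSTRN cells and 144 ± 5.52 in si-NC cells. PARP1 had 76.7 ± 1.46 in si-KNSTRN cells and 83.2 ± 1.62 in si-NC cells. The order of these 4 was the same in both groups, although APEX1 and XRCC5 lay close to each other. BRCA2 and RAD51D had the lowest levels, with 2.20 and 1.59 CPM per kilobase in si-KNSTRN cells and 2.82 and 1.36 in si-NC cells. These levels depend on the transcript chosen for the length.

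Among mismatch repair genes, MSH6 alone was called. MSH6, which recognises single-base mismatches, had 149, 131 and 136 CPM in si-KNSTRN libraries 1 to 3, against 201, 202 and 207 CPM in si-NC libraries 1 to 3 (log2 fold change -0.55, SE 0.05, adjusted p = 8.3e-08), and the groups were far apart. It shares 1785 exonic bases with FBXO11, which rose, with log2 fold change 0.24. MSH3, which recognises longer loops, had a log2 fold change of -0.04, PMS2, an endonuclease subunit, 0.01, and the exonuclease gene EXO1 -0.09 (adjusted p = 0.63, 0.92 and 0.17). EXO1 was called lower with upper-quartile factors (0.042). Of the windows of the PMS2 transcript, 34.1% also occur in pseudogenes such as PMS2CL, and its counts are uncertain.

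Base excision and single-strand break genes were divided. UNG, the glycosylase that removes uracil from DNA, had 43.5, 46.1 and 46.1 CPM in si-KNSTRN libraries 1 to 3, against 57.6, 51.8 and 54.9 CPM in si-NC libraries 1 to 3 (log2 fold change -0.28, SE 0.06, adjusted p = 0.00044). The sensors of strand breaks went opposite ways, each by a small amount. PARP1 averaged 304 ± 5.79 CPM in si-KNSTRN cells and 329 ± 6.40 CPM in si-NC cells, and PARP2 64.5 ± 2.66 CPM in si-KNSTRN cells and 57.5 ± 2.21 CPM in si-NC cells (SD, n = 3 each). Their log2 fold changes were -0.12 and 0.17 (adjusted p = 0.026 and 0.0087 by edgeR). PARP1 lost its call without si-KNSTRN library 1 or 2 (adjusted p = 0.066 and 0.11) and with library size alone (0.13), and PARP2 without si-NC library 1 (0.063). The ligase gene LIG3 had a log2 fold change of 0.16 (adjusted p = 0.041), a call lost on leaving out any library other than si-NC library 2 (adjusted p from 0.069 to 0.14), with DESeq2 (0.087), with upper-quartile factors (0.12) and without the low-count filter (0.054). LIG3 shares 3754 exonic bases with RFFL, which was not called (log2 fold change 0.10). Without si-NC library 1, neither PARP2 nor LIG3 was called higher, and 6 of the 57 genes were called higher in place of 10. The scaffold gene XRCC1 and the endonuclease gene APEX1 had log2 fold changes of 0.08 and 0.06 and were not called.

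Nucleotide excision repair, which removes bulky lesions such as those made by ultraviolet light, had 3 of 5 genes lower and none higher. DDB2 and XPC, which recognise damage, were lower, whereas the XPC partner gene CETN2, outside these 5, was higher. Of 18 other nucleotide excision genes, set out below, 6 were higher and 2 lower. DDB2 had 27.2, 25.2 and 21.2 CPM in si-KNSTRN libraries 1 to 3, against 34.8, 31.8 and 33.1 CPM in si-NC libraries 1 to 3 (log2 fold change -0.44, SE 0.08, adjusted p = 0.00017). XPC averaged 56.0 ± 1.71 CPM in si-KNSTRN cells and 65.2 ± 1.74 CPM in si-NC cells (SD, n = 3 each; log2 fold change -0.22, SE 0.05). ERCC1, part of the nuclease that cuts beside the lesion, fell by 0.20 (SE 0.05, adjusted p = 0.0020), and it shares 1593 exonic bases with POLR1G, which was not called. The helicase gene ERCC2 and the scaffold gene XPA had log2 fold changes of 0.03 and -0.005. DDB2 and XPC are known targets of the transcription factor p53, and 20 other p53 targets were set beside them. Of these, 8 were higher and 2 lower, with CDKN1A and TIGAR higher by log2 fold changes of 2.36 and 1.10 and FAS lower by 1.58 on the log2 scale.

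A further 144 genes of the same pathways, listed from textbook knowledge, had 49 lower, 29 higher and 65 not called of 143 tested (34.3% lower and 20.3% higher). Homologous recombination genes outside the 57 had 10 of 24 lower and 5 higher, crosslink repair genes 4 of 17 lower and 3 higher, and end joining genes 2 of 8 lower and 3 higher. RBBP8, which encodes the resection factor CtIP, averaged 73.7 ± 3.20 CPM in si-KNSTRN cells and 49.0 ± 3.86 CPM in si-NC cells (SD, n = 3 each; log2 fold change 0.59, SE 0.06). RMI2, a subunit of the complex around BLM, had 6.999 ± 0.401 CPM in si-KNSTRN cells and 12.3 ± 1.06 CPM in si-NC cells (log2 fold change -0.82), and RPA3, of the single-strand binding complex, fell by 0.42. The gap-filling polymerases of end joining went opposite ways, POLM with a log2 fold change of 0.51 and POLL with -0.53, and the Ku-binding gene PAXX rose, with log2 fold change 0.47.

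In the checkpoint list, 4 of 16 fell and 3 rose. TOPBP1, the activator of ATR, averaged 115 ± 5.40 CPM in si-KNSTRN cells and 161 ± 5.38 CPM in si-NC cells (SD, n = 3 each), and WEE1, the kinase that holds cells before mitosis, and CDC25C, the phosphatase that releases them, fell by 0.49 and 0.62 on the log2 scale. Other break chromatin genes had 6 of 17 lower and 3 higher. H2AX, the histone whose phosphorylated form MDC1 binds, fell by 0.53, and UBE2N, the conjugating enzyme that works with RNF8, rose, with log2 fold change 0.34. Bypass genes had 7 of 15 lower and 2 higher, led by the fork remodeller gene HLTF with 35.4 ± 2.73 CPM in si-KNSTRN cells and 65.3 ± 5.66 CPM in si-NC cells (log2 fold change -0.88, SE 0.07) and the polymerase gene POLI (-0.59). Other nucleotide excision genes had 6 of 18 higher and 2 lower, among them the XPC partner gene CETN2 (0.44). Other base excision genes had 7 of 19 lower and 4 higher, mismatch repair genes 5 of 6 lower and none higher, and direct reversal genes 2 of 3 lower. The flap nuclease gene FEN1, the glycosylase gene NEIL1 and the replication ligase gene LIG1 had log2 fold changes of -0.36, -0.59 and -0.27, and the direct reversal gene MGMT had -0.41.

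Genes of replication and mitosis moved in the same libraries. Of 27 G1/S and replication genes, 16 were lower and 7 higher (median log2 fold change -0.23), and of 27 G2/M and mitosis genes, 16 were lower and 4 higher (median -0.16). TYMS, MCM3 and MCM6 fell by 1.27, 1.05 and 0.66 on the log2 scale, TOP2A by 0.84 and NCAPD2 by 0.50, while CKS2 rose, with log2 fold change 0.63. What part, if any, a change in cell cycle makes of the repair genes' values was not tested.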

How the data were processed

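RNA of T24 cells was made into libraries with a SMARTER mRNA kit, per the labels' protocols. Values are raw counts of reads for each gene, as the authors deposited them. The submitters' processing notes name GRCh38, HISAT2 2.0.1, fastp 0.20.0, FastQC 0.11.5 and featureCounts. The strand setting is not given in the sources used here, nor is the annotation release, and reads from overlapping genes may be mixed. Groups come from the sample titles. No replicate pair agreed within sampling noise (chi-square per degree of freedom 2.16 to 10.3).

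edgeR 4.0.16 (R 4.3.3) was run with filterByExpr (minimum count 10), TMM factors and a two-sided quasi-likelihood test, adjusted by Benjamini-Hochberg over 12650 genes. The biological coefficient of variation was 5.47%. A count of 3 reads is 0.146 to 0.183 CPM, which covers counting error alone. In simulated si-KNSTRN and si-NC libraries (12562 genes), 68% of 50 genes altered 1.25-fold and 92% of 50 altered 2-fold were recovered. Of 12365 unaltered genes, 15 were called. In the data 62.5% of genes tested were called, and recovery at such a share of altered genes was not tested.

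The members and lists were chosen with earlier results of these data known. Every member could be named, with values in each library for called members at a log2 fold change of at least 0.4 in size and their partners, and otherwise KNSTRN, markers and the 3 genes with the smallest p of each list. Genes that overlap a member are named besides. Lists are given as counts, with no test over a list. Transcripts came from GENCODE 29 (1 per gene) and promoters from RefSeq. Alternatives were other scalings, DESeq2 1.42.0, limma-voom (limma 3.58.1), other low-count filters, a replicate term, each library left out, stricter thresholds and leaving out members with TGAGTA, with overlapping genes or (chosen after seeing the data) with sequence shared with other genes. Figures used Python 3.11.15. Some sites that hold the word are not reported here.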

Additional observations from a re-analysis of the deposited data

How the results depend on the processing

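Of the 32 called genes, 24 kept their call and direction in all 14 alternative fits. The other 8 (FANCB, FANCE, BARD1, CHEK1, RNF8, LIG3, PARP1 and PARP2) lost it in at least 1, and the cause was not tested. Of 57 genes, 22 were lower and 10 higher, with 19 to 23 lower and 6 to 11 higher when each library was left out, and 20 and 8 by DESeq2. At a log2 fold change of at least 0.322 in size, 12 were lower and 3 higher, beside 2431 of all genes higher in place of 3946. Without the genes that hold TGAGTA, 14 were lower, because fewer genes were counted. KNSTRN stayed between -1.66 and -1.57 when each library was left out. The replicate numbers did not pair the libraries (correlations of deviations -0.06, 0.05 and -0.03 for numbers 1 to 3), and with the replicate block 21 members were lower and 9 higher, with CHEK1, RNF8 and LIG3 not called (adjusted p = 0.068, 0.063 and 0.069 by edgeR) and RAD51D called (0.036). Not every library correlated best with its own number. Small counts within pathways moved most. With upper-quartile factors there was 1 Fanconi core gene higher, 0 break chromatin genes and 1 base excision gene higher, 1 gene lower among the recombinase partners, 1 in end joining and 2 in mismatch repair. With library size alone, 4 recombinase partner genes and 1 RecQ gene were higher and 1 base excision gene lower, and without the low-count filter 4 partner genes and 1 base excision gene were higher. DESeq2 and the replicate block each gave 0 break chromatin and 1 base excision gene higher, and DESeq2 and limma-voom each 1 end joining gene lower. At an adjusted p under 0.01, 1 Fanconi core, 0 break chromatin and 1 base excision gene were higher and 1 base excision gene lower. At a log2 fold change of at least 0.322 in size, 0 Fanconi core, recombinase partner, break chromatin and base excision genes were higher, with 1 Fanconi core, 1 kinase, 1 nucleotide excision and 0 base excision genes lower. Leaving out libraries gave 1 to 2 Fanconi core, 2 to 4 partner, 0 to 1 RecQ, 0 to 1 break chromatin and 0 to 2 base excision genes higher, and 0 to 1 partner, 0 to 1 end joining and 1 to 2 base excision genes lower. Values near 0 that were never called changed sign. With library size alone, FANCI had 0.025, RAD50 0.0018, XRCC6 0.0103, ATRIP 0.032 and XPA 0.032, and with upper-quartile factors PMS2 had -0.034 and ERCC2 -0.017. Over libraries left out, FANCF ranged from -0.14 to 0.0086, FANCI from -0.058 to 0.031, ATRIP from -0.054 to 0.027, MSH3 from -0.0898 to 0.012, PMS2 from -0.059 to 0.042, ERCC2 from -0.011 to 0.071 and XPA from -0.035 to 0.022. In simulated counts at this depth and number of libraries, 68% of genes changed by a log2 fold change of 0.322 were recovered. Of 12562 genes there, 12365 were left unaltered, whereas 62.5% of genes tested were called in the data. Recovery at such a share of changed genes was not tested.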
